A study of Mus musculus with 11 samples.

Results

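The genes described here are 10 genes that turn cell proteins into peptides for class I antigen presentation, together with the ubiquitin-like modifier Ubd. They were taken by symbol from the 11366 genes of the deposited mouse table, and all 10 were found: the immunoproteasome subunits Psmb8, Psmb9 and Psmb10, the proteasome activator subunits Psme1 and Psme2, the peptide transporter subunits Tap1 and Tap2, tapasin (Tapbp), the transactivator Nlrc5, and Ubd. The choice rested on what the genes do and not on their values, although earlier results of these data were known when it was made. RNA was measured by RNA-seq in epithelial cells of the small intestine from WT mice, sorted as live CD45-, CD31-, EpCAM+ and CD44- cells. In the SFB group (4 libraries) the mice were fed standard chow and had been colonized with SFB, read here as segmented filamentous bacteria, which attach to the epithelium of the small intestine. In the NFF group (4 libraries) the diet was low in fermentable fiber, and in the Control group (3 libraries) it was standard chow, with no treatment in either. SFB and NFF mice therefore differed in both diet and colonization, and the labels give no age, sex or strain. All 3 comparisons share libraries: SFB and NFF are both set against the same Control libraries.

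Proteasomes cut proteins into short peptides. In cells exposed to interferon gamma, the 3 catalytic subunits of the ordinary particle are replaced by inducible ones, which changes the peptides made, and the activator PA28 opens the particle's gate. The transporter TAP carries the peptides into the endoplasmic reticulum, where tapasin holds empty class I molecules beside it until a peptide fits. Nlrc5 is a protein that works at the promoters of class I genes, and Ubd, also called FAT10, is attached to proteins as a tag that sends them to the proteasome.

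Values are RPKM, reads scaled by gene length and by library total, so levels of different genes can be set side by side. The files give no read counts, and the depth of the libraries is unknown. Differences are log2 fold changes of RPKM + 1 with their standard errors, from limma over 10482 genes, and a gene is said to have risen or fallen where its Benjamini-Hochberg adjusted p over all tested genes was under 0.05. Whether each library is from its own animal is not stated in the labels. The p-values therefore reflect only how far these libraries scatter, which may be technical. Of the 11 libraries, SFB 4, SFB 2 and Control 2 lay farthest from their group means, with a root mean square deviation over all tested genes of 0.43, 0.38 and 0.35 log2 units. Whether libraries of equal number share anything, such as a day of sorting, is not known here, and the main fit does not pair them. The sort was for epithelial cells, and all 11 listed epithelial markers were present, with Epcam at 587 ± 79.8 RPKM in SFB, 618 ± 25.7 RPKM in NFF and 545 ± 64.0 RPKM in Control libraries (SD, n = 4, 4 and 3). Of these 11 markers, 2 fell in SFB against NFF, while 4.2% of all tested genes fell. The keratin gene Krt18 had 352 ± 50.6 RPKM in SFB, 757 ± 274 RPKM in NFF and 707 ± 166 RPKM in Control, a log2 difference of -1.05 in SFB against NFF (limma, adjusted p = 0.0278). The sucrase gene Sis had 155 ± 59.7 RPKM in SFB, 357 ± 73.7 RPKM in NFF and 197 ± 58.4 RPKM in Control, a log2 difference of -1.27 in SFB against NFF (limma, adjusted p = 0.0305). Whether they bear on the differences of the 10 genes was not tested.

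The 10 genes sit on 3 chromosomes of the GRCm38 build. Psmb9 (17, 34181987 to 34187764, minus strand), Tap1 (17, 34187553 to 34197225, plus), Psmb8 (17, 34197721 to 34201454, plus) and Tap2 (17, 34203527 to 34216321, plus) lie side by side within 34.3 kb of chromosome 17. Tapbp (17, 33915899 to 33929292, plus) and Ubd (17, 37193892 to 37196095, plus) are on the same chromosome. Nlrc5 (8, 94434356 to 94527272, plus) and Psmb10 (8, 105935735 to 105938444, minus) are on chromosome 8, and Psme1 (14, 55578123 to 55581529, plus) and Psme2 (14, 55587441 to 55591113, minus) lie within 13 kb of chromosome 14. Tap1 and Psmb9 are transcribed in opposite directions from neighbouring starts. In GENCODE, the source of these spans, they share 212 bases of exon on opposite strands, while the RefSeq start sites used for the promoters are 226 bases apart. The library kits do not mark strand, so reads in the shared stretch cannot be told apart. Psmb8, Tap2 and Tapbp overlap antisense or other transcripts by 498, 533 and 904 exon bases in the annotation, and the same limit holds there. It also holds for the constitutive subunit Psmb7, set against Psmb10 below, which overlaps the gene Nek6 on the opposite strand by 405 exon bases.

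Promoter windows of 250 bases before and 50 after the start site were available for 8 of the 10 genes from RefSeq (GRCm38.p6), with no entry for Tap2 and Nlrc5. For Psmb8, Psmb9, Psme1 and Tapbp the RefSeq start site lies well inside the GENCODE gene span given above. The windows of 4 genes are printed, 5' to 3' on the plus strand, with matches to the searched motifs in capitals. They are those of the gene that rose in both SFB comparisons with the smallest p (Tap1), the most changed catalytic subunit (Psmb8), the gene with the widest range (Ubd) and the member with an interferon-stimulated motif (Psme1). Their positions are chr17:34187306-34187605 for Tap1, chr17:34197945-34198244 for Psmb8, chr17:37193642-37193941 for Ubd and chr14:55578244-55578543 for Psme1.
Tap1: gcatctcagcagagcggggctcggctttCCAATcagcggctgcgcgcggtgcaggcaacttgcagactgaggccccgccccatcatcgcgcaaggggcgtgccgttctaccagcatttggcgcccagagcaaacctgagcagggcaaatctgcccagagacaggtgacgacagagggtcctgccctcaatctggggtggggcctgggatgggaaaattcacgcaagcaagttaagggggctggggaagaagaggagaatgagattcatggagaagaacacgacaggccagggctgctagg
Psmb8: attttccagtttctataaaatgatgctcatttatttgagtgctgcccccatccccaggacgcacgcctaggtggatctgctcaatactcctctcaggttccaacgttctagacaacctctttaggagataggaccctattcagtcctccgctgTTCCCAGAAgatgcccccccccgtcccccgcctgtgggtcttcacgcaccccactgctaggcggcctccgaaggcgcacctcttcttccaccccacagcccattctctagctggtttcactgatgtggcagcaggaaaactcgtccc
Ubd: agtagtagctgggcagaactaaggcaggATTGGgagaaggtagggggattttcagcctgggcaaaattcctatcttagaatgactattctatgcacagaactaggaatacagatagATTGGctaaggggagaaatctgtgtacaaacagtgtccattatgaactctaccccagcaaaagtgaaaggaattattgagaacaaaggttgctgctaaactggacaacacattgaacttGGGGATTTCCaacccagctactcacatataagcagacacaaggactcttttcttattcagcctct
Psme1: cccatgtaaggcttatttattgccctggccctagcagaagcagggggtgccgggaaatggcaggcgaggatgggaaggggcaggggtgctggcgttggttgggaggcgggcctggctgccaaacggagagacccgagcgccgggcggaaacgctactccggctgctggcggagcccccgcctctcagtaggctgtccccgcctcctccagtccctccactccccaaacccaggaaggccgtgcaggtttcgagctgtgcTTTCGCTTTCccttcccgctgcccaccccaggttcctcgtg
Both strands were searched for 4 motifs. The interferon-stimulated response element, GAAA followed by any 2 bases and GAAA, was found in 1 of 8 windows, that of Psme1, where its first base is at position 10 from the start site, as the reverse-strand form TTTCGCTTTC. It occurs in 3.44% of all 32851 RefSeq promoters, which include genes not tested here, and in 2.99% of the 10706 promoters of tested genes. The gamma-activated site, TTCNNNGAA, was found in 1 of 8 windows, that of Psmb8, as TTCCCAGAA at position -97, and occurs in 8.3% of all promoters. The kappa B motif was found in 1 of 8 windows, that of Ubd, as GGGGATTTCC at position -15, and occurs in 4.51% of all promoters. CCAAT, the letters bound by NF-Y, was found in 4 of 8 windows (Psmb9, Tap1, Tapbp and Ubd), against 37.4% of all promoters. Among the promoters of tested genes, the gamma-activated site occurs in 6.79%, the kappa B motif in 5.06% and CCAAT in 38.3%. The capital letters in the Tap1 window are its CCAAT match. The windows of Tap1 and Psmb9 share 275 bases, this match among them, so the same site is counted for both genes. A match describes the letters and does not show that a factor binds, and a window with no match says nothing of that factor.

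The catalytic subunits Psmb8 and Psmb9, the transporter subunit Tap1 and Nlrc5 had libraries that did not overlap between any of the 3 groups. The share of all tested genes with 3 separate groups was not counted. By pairs, 10.1% of all tested genes were separate and higher in SFB than NFF, and 3.66% in SFB than Control. In NFF against Control, 4.42% were separate and lower. In SFB against NFF libraries, 8 of the 10 genes rose, while 3.14% of all tested genes rose and 4.2% fell. In SFB against Control libraries, 2 of 10 rose (Tap1 and Nlrc5), while 0.124% of all tested genes did. Nlrc5, counted in both comparisons, reached the filter of 1 RPKM in 3 libraries only through its SFB libraries and Control 2. In NFF against Control libraries none of the 10 passed the adjusted threshold, nor did any other gene (0% called, either direction), and 4 of the 10 had an unadjusted limma p under 0.05, against 4.82% of all tested genes. With Control 2, SFB 2 and SFB 4 all left out, a choice made after seeing the data, 5 of the genes rose in SFB against NFF (Psmb8, Psmb9, Tap1, Tap2 and Ubd) and 2 in SFB against Control (Tap1 and Ubd). That fit called 862 and 95 of all 10327 genes it tested, in either direction, in SFB against NFF and SFB against Control, and Nlrc5 no longer reached the filter and was not tested. The median log2 fold change of the 10 genes was 1.10 in SFB against NFF, beside 0.020 for all tested genes. It was 0.63 in SFB against Control, beside 0.012, and -0.35 in NFF against Control, beside -0.0085.

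**Figure D1:**
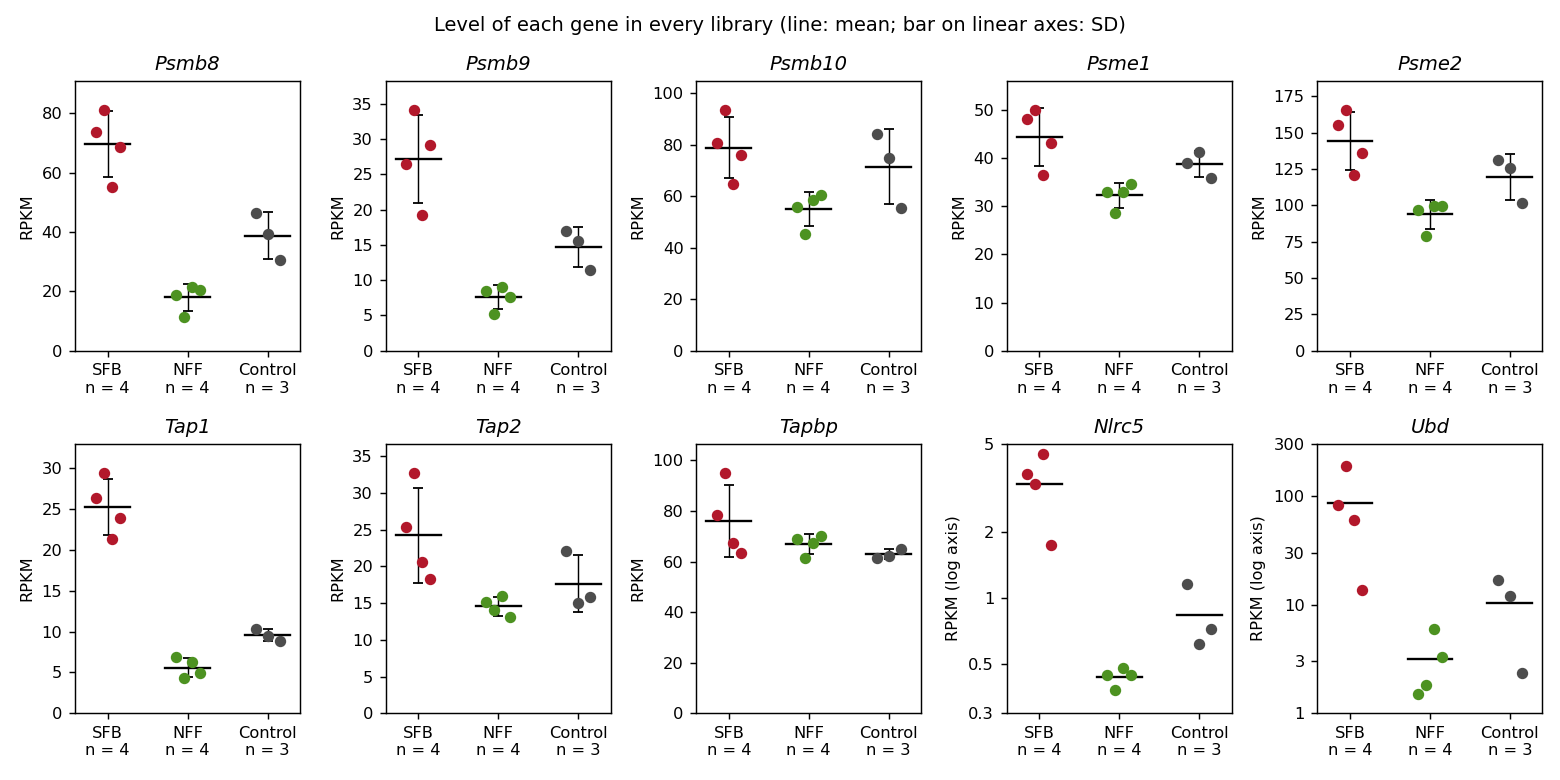
RPKM of each of the 10 genes (vertical axes, logarithmic for Nlrc5 and Ubd) in every SFB, NFF and Control library (horizontal axis); points are libraries, lines are group means, and bars on linear axes the SD. SFB libraries lie above NFF libraries for all genes but Tapbp, with Psmb8 at 55.0 to 81.1 RPKM in SFB, 11.2 to 21.4 in NFF and 30.6 to 46.3 in Control.

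Psmb8, which replaces the constitutive subunit Psmb5 and cuts after bulky hydrophobic residues, had 73.8, 81.1, 55.0 and 68.8 RPKM in SFB 1, 2, 3 and 4. It had 18.7, 11.2, 21.4 and 20.5 RPKM in NFF 1, 2, 3 and 4, and 46.3, 39.2 and 30.6 RPKM in Control 2, 4 and 5. The 3 groups were separate from each other, SFB highest and NFF lowest. Psmb8 averaged 69.7 ± 11 RPKM in SFB, 17.9 ± 4.62 RPKM in NFF and 38.7 ± 7.90 RPKM in Control (SD). The rise in SFB against NFF was 1.92 ± 0.21 log2 units (limma, adjusted p = 0.000762). The differences of 0.84 ± 0.22 in SFB against Control (adjusted p = 0.150) and -1.09 ± 0.22 in NFF against Control (adjusted p = 0.519, unadjusted p = 0.000396) did not pass. Bulk libraries cannot tell fewer cells of a type from less RNA per cell, here and for every gene that follows.

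Psmb9, which replaces Psmb6, had 26.5, 34.1, 19.2 and 29.2 RPKM in SFB 1, 2, 3 and 4. Its values were 8.51, 5.20, 9.07 and 7.58 RPKM in NFF 1, 2, 3 and 4, and 16.99, 15.5 and 11.5 RPKM in Control 2, 4 and 5. The groups did not overlap and had the same order as for Psmb8. The rise in SFB against NFF was 1.71 ± 0.20 (limma, adjusted p = 0.00121). In SFB against Control the difference was 0.84 ± 0.22 (adjusted p = 0.143), and in NFF against Control it was -0.87 ± 0.22 (adjusted p = 0.566, unadjusted p = 0.00169).

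Psmb10, which replaces Psmb7, had 64.9 to 93.6 RPKM in SFB, 45.3 to 60.4 RPKM in NFF and 55.5 to 84.1 RPKM in Control. SFB and NFF libraries did not overlap, but both overlapped Control. The log2 differences were 0.51 ± 0.16 in SFB against NFF (limma, adjusted p = 0.0774), 0.15 ± 0.17 in SFB against Control (adjusted p = 0.798) and -0.36 ± 0.17 in NFF against Control (adjusted p = 0.896), and none passed.

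The ratio of an inducible subunit to the constitutive one it replaces does not depend on library scaling. Psmb8 over Psmb5 was 0.878, 1.01, 0.772 and 0.608 in SFB 1, 2, 3 and 4. It was 0.269, 0.163, 0.272 and 0.249 in NFF 1, 2, 3 and 4, and 0.595, 0.366 and 0.421 in Control 2, 4 and 5. All 3 groups were separate, although SFB 4 lay close to Control 2. Psmb9 over Psmb6 ranged from 0.316 to 0.468 in SFB, 0.0910 to 0.148 in NFF and 0.191 to 0.259 in Control, again with no overlap. Psmb10 over Psmb7 ranged from 2.70 to 4.22 in SFB, 2.91 to 3.63 in NFF and 2.77 to 4.73 in Control, and the groups overlapped. The RPKM of Psmb10 was above that of Psmb7 in every library, whereas that of Psmb9 was below that of Psmb6 in every library. Because the gene lengths used are not given, these values do not settle which RNA of a pair was more abundant.

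These ratios were compared by 9 two-sided exact permutation tests, 3 pairs by 3 comparisons. With 4 libraries against 4 or 3 the smallest possible p is 0.0286. The log2 ratio of Psmb9 to Psmb6 differed by 1.64 in SFB against NFF, 0.80 in SFB against Control and -0.84 in NFF against Control (exact permutation p = 0.0286 each, 0.0514 after adjustment over the 9). That of Psmb8 to Psmb5 differed by 1.79 in SFB against NFF and -0.95 in NFF against Control (exact p = 0.0286, adjusted 0.0514), and by 0.84 in SFB against Control (exact p = 0.0571, adjusted 0.0857). No ratio passed 0.05 after adjustment. A ratio at the smallest possible p could pass only if most of the 9 tests reached that p too. Missing the threshold therefore decides nothing about a single ratio. The ratio of Psmb10 to Psmb7 differed by 0.079, 0.084 and 0.0050 in SFB against NFF, SFB against Control and NFF against Control (exact p = 0.629, 0.771 and 1.0). The constitutive subunits Psmb5, Psmb6 and Psmb7 did not pass in any comparison, the widest log2 fold change being 0.42 for Psmb7 in SFB against NFF (limma, adjusted p = 0.113).

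**Figure D2:**
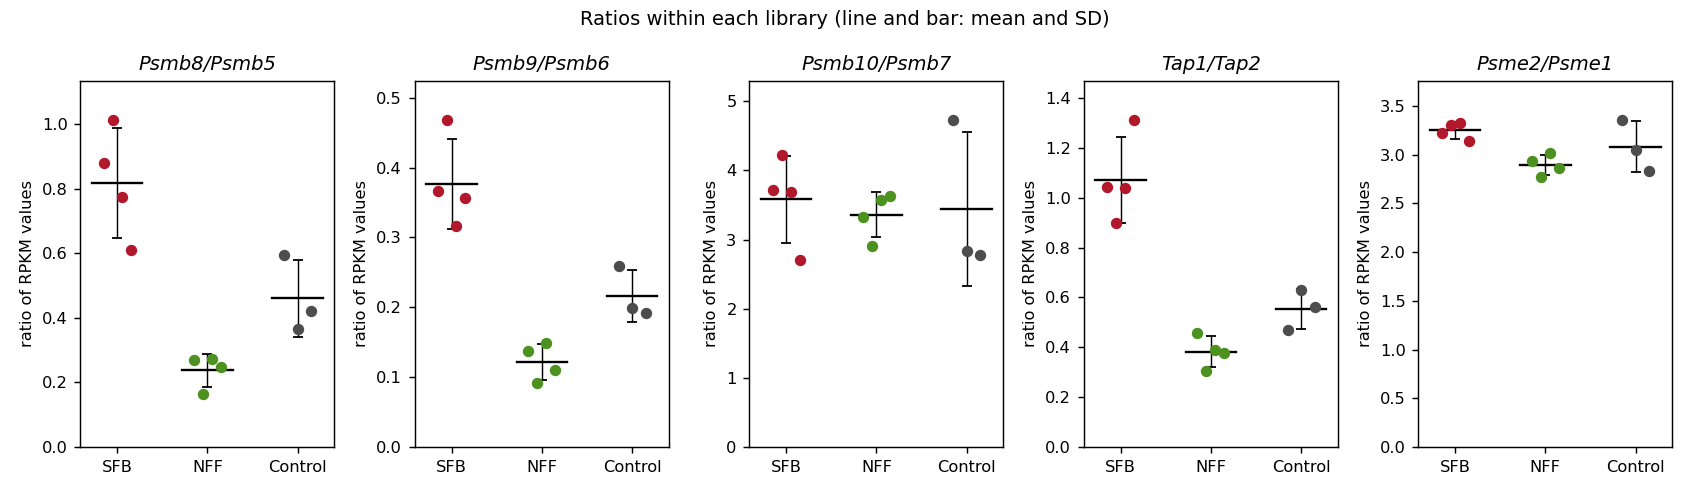
Ratio of RPKM between pairs of genes (vertical axes) in every SFB, NFF and Control library (horizontal axis), points as libraries, lines as group means and bars as the SD. Psmb8 over Psmb5 and Psmb9 over Psmb6 separate the 3 groups, and Psmb10 over Psmb7 does not, at 2.70 to 4.22 in SFB, 2.91 to 3.63 in NFF and 2.77 to 4.73 in Control.

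Psme1 and Psme2 are the subunits of PA28, the ring that caps the proteasome and is itself inducible by interferon gamma. Psme1 had 36.5 to 50.05 RPKM in SFB, 28.6 to 34.7 RPKM in NFF and 35.9 to 41.2 RPKM in Control. Psme2 had 121 to 166 RPKM in SFB, 79.1 to 99.7 RPKM in NFF and 102 to 131 RPKM in Control. For both genes NFF was separate from SFB and from Control, and SFB overlapped Control. Psme1 rose in SFB against NFF by 0.44 ± 0.12 (limma, adjusted p = 0.0484) and Psme2 by 0.61 ± 0.14 (adjusted p = 0.0277), and neither passed in the comparisons with Control. Psme2 lost its call without SFB 1 (adjusted p = 0.0713), SFB 2 (0.0511) or any single NFF library (0.0548 to 0.0980). Psme1 kept its call without SFB 3 or Control 2 but lost it without any of the other 9 libraries (0.0541 to 0.150). Psme2 has a near-identical copy, Psme2b, with 99.4% of 794 aligned bases the same, so reads may have been split between them. The ratio of Psme2 to Psme1 was 3.14 to 3.32 in SFB, 2.77 to 3.01 in NFF and 2.84 to 3.35 in Control. Psme2b had 32.8 to 48.2 RPKM in SFB, 21.4 to 28.8 RPKM in NFF and 28.4 to 44.3 RPKM in Control, and its difference of 0.58 in SFB against NFF did not pass (adjusted p = 0.0661).

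Tap1, the transporter subunit that pairs with Tap2, had 26.3, 29.4, 21.3 and 23.9 RPKM in SFB 1, 2, 3 and 4. It had 6.93, 4.29, 6.22 and 4.95 RPKM in NFF 1, 2, 3 and 4, and 10.4, 9.41 and 8.88 RPKM in Control 2, 4 and 5. Every SFB library was above every Control library, and every Control library above every NFF library. Tap1 rose in SFB against NFF by 2.00 ± 0.14 (limma, adjusted p = 6.96e-05), with the smallest p of the 10482 tested genes in that comparison. It rose in SFB against Control by 1.31 ± 0.16 (adjusted p = 0.00578), and in NFF against Control the difference of -0.69 ± 0.16 did not pass (adjusted p = 0.526, unadjusted p = 0.000858). The call against Control did not pass when only the SFB and Control libraries were fitted (adjusted p = 0.0623).

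Tap2 had 25.3, 32.7, 20.6 and 18.2 RPKM in SFB 1, 2, 3 and 4. It had 15.1, 14.02, 16.0 and 13.1 RPKM in NFF 1, 2, 3 and 4, and 22.1, 14.965 and 15.9 RPKM in Control 2, 4 and 5. SFB and NFF were separate, and Control overlapped both. Tap2 rose in SFB against NFF by 0.67 ± 0.18 (limma, adjusted p = 0.0433), a call lost without any one of SFB 1, 2 or 3, any NFF library or Control 5 (adjusted p from 0.0578 to 0.120). In SFB against Control the difference was 0.42 ± 0.19 (adjusted p = 0.411). The ratio of Tap1 to Tap2 was 0.898 to 1.31 in SFB, 0.306 to 0.458 in NFF and 0.468 to 0.629 in Control, 3 separate ranges, given here without a test. Tapbp, the chaperone tapasin, had 63.5 to 95.1 RPKM in SFB, 61.3 to 70.0 RPKM in NFF and 61.4 to 65.1 RPKM in Control, with all groups overlapping. Its log2 differences were 0.17 ± 0.13 in SFB against NFF (95% interval -0.12 to 0.45, adjusted p = 0.455) and 0.25 ± 0.14 in SFB against Control (adjusted p = 0.504).

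Nlrc5 had the lowest RPKM of the 10 genes, at 3.65, 3.30, 4.50 and 1.75 in SFB 1, 2, 3 and 4. It had 0.447, 0.384, 0.480 and 0.449 RPKM in NFF 1, 2, 3 and 4, and 1.16, 0.616 and 0.727 RPKM in Control 2, 4 and 5. The groups were separate, SFB highest and NFF lowest, with SFB 4 the lowest SFB library. Nlrc5 reached the filter of 1 RPKM in 3 libraries only through its SFB libraries and Control 2, and at levels this low the log2 scale with 1 added understates its change. It rose in SFB against NFF by 1.53 ± 0.19 (limma, adjusted p = 0.00170) and in SFB against Control by 1.20 ± 0.21 (adjusted p = 0.0466). The call against Control was close to the threshold and was lost without any single library except SFB 4 (adjusted p from 0.0640 to 0.170), while without SFB 4 the difference was 1.40 (adjusted p = 0.00297).

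Ubd had 82.8, 189, 59.975 and 13.7 RPKM in SFB 1, 2, 3 and 4. It had 1.49, 1.82, 5.95 and 3.28 RPKM in NFF 1, 2, 3 and 4, and 16.95, 11.9 and 2.36 RPKM in Control 2, 4 and 5. SFB was separate from NFF, but SFB 4 lay within the Control range and Control 5 within the NFF range. The highest SFB library had 13.8 times the RPKM of the lowest, against 1.37 to 2.58 times for the other 9 genes. Ubd rose in SFB against NFF by 4.01 ± 0.71 (limma, adjusted p = 0.00778), the highest log2 fold change of the 10482 tested genes. In SFB against Control it was 2.74 ± 0.77 (adjusted p = 0.175), the second highest, and did not pass. Without SFB 4 it was 3.43 and passed (adjusted p = 0.0319), and without Control 5 it was 2.01. In NFF against Control it was -1.28 ± 0.77 (adjusted p = 0.896), ranging from -2.003 to -0.79 when one library was left out.

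**Figure D3:**
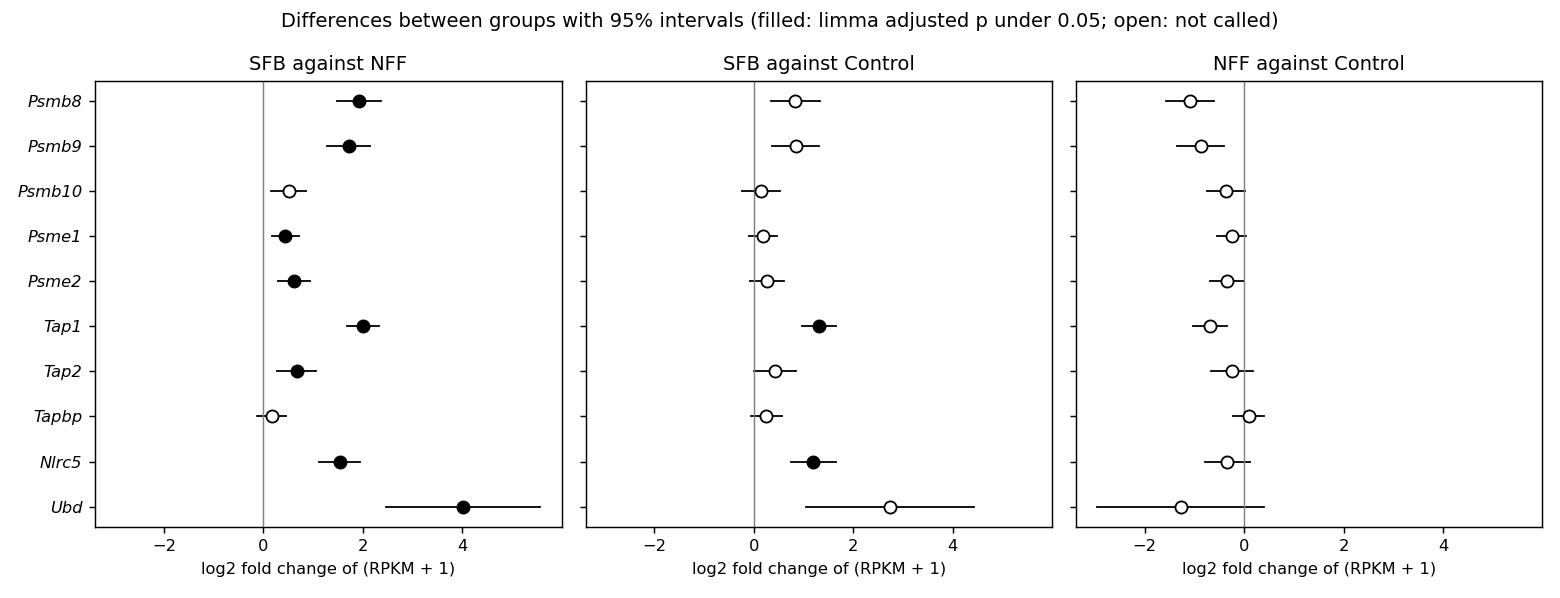
Log2 fold change of RPKM + 1 (horizontal axis) with 95% intervals for the 10 genes (vertical axis) in SFB against NFF, SFB against Control and NFF against Control, filled where the limma adjusted p was under 0.05. Tap1 is filled in both SFB comparisons, at 2.00 and 1.31, and no gene is filled in NFF against Control.

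Within groups, the same library was often the highest or the lowest for many of the 10 genes. SFB 2 was the highest SFB library for 9 of the 10 genes, and NFF 2 the lowest NFF library for 8 of 10. Control 2 was the highest Control library for 8 of 10, and Control 5 the lowest for 7. The lowest SFB library was SFB 3 for 6 genes and SFB 4 for 4. How often each library was highest or lowest over all tested genes was not counted, so these counts have no background. In counts of separate libraries, 9 of 10 genes were higher in every SFB than in every NFF library (10.1% of all tested genes), and 4 of 10 higher in every SFB than in every Control library (3.66%). In NFF against Control, 6 of 10 were lower in every NFF library (4.42%).

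The profile of each gene over the 11 libraries, standardised to mean 0 and SD 1, was set against the mean profile of the other 9. The root mean square difference was smallest for Psme2 (0.246), Psmb9 (0.289) and Psmb8 (0.304) and largest for Tapbp (0.845). Genes outside the 10 were set against the mean profile of all 10, and the median over all tested genes was 1.37. Among the other genes nearest to that profile were Plaat3 (0.201), a lipid-modifying acyltransferase and phospholipase, Nudt5 (0.201), a hydrolase of ADP-sugars, Oit1 (0.242) and Cycs (0.252), which encodes cytochrome c. They are named for their likeness over 11 libraries, and likeness chosen this way has no test. Plaat3 had 9.32 to 15.04 RPKM in SFB, 2.80 to 3.79 RPKM in NFF and 5.21 to 7.32 RPKM in Control, 3 separate ranges.

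**Figure D4:**
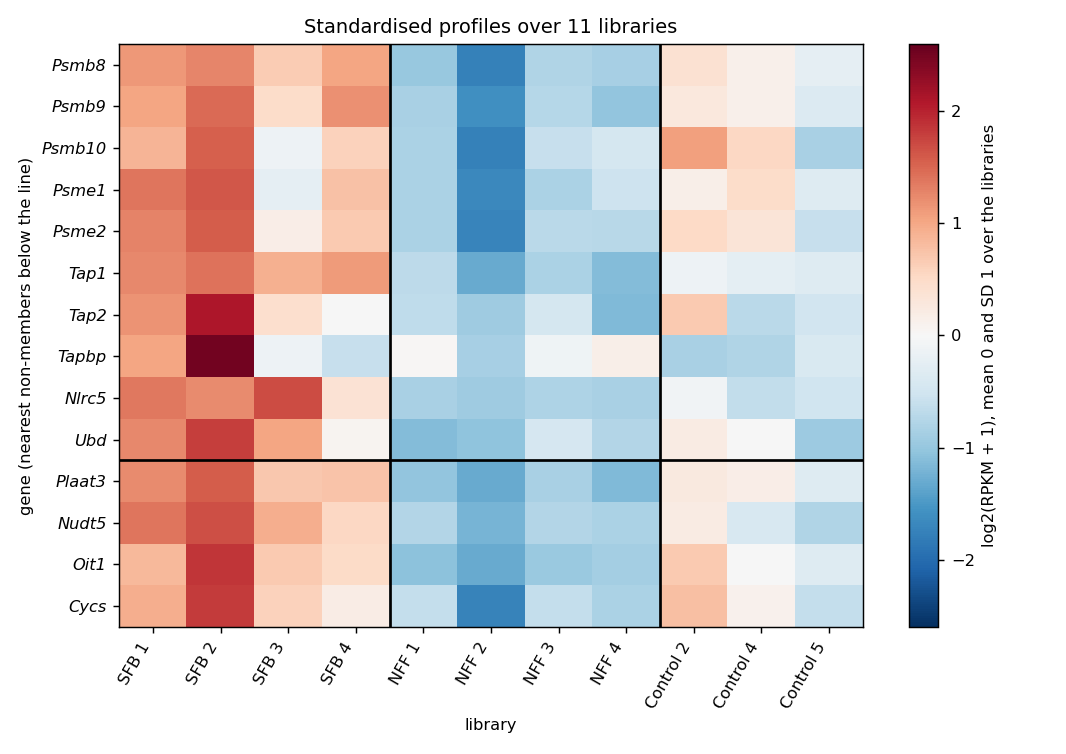
Heat map of log2 (RPKM + 1), standardised to SD units (colour, red high and blue low), for the 10 genes and, under the line, 4 near other genes (vertical axis) in the 11 SFB, NFF and Control libraries (horizontal axis). Of the 10 genes Tapbp departs most from the mean profile of the others, with a root mean square difference of 0.845.

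The rest of the pathway was read from lists, in which the median of all tested genes in SFB against NFF, 0.020, is the background. For the counts in these lists and in the marker lists below, the background is that 3.14% of all tested genes rose and 4.2% fell in SFB against NFF. A list with 1 called gene therefore says little about the list. Of 14 constitutive proteasome core subunits, 1 rose in SFB against NFF (Psma1, 0.66, limma adjusted p = 0.0272) and none in the other comparisons, with a median of 0.35. Of 21 regulatory cap and activator genes, 4 rose in SFB against NFF, among them Psmd1 (0.69, adjusted p = 0.0264), Psmd14 (0.69, adjusted p = 0.0277) and Psmd11 (0.55, adjusted p = 0.0279), and the list's median was 0.39. None of the 6 assembly factors passed. Class I heavy chains and B2m counted 14 tested genes, of which 2 rose in SFB against NFF, H2-Q6 (1.75, adjusted p = 0.00778) and H2-Q4 (0.68, adjusted p = 0.0477), and both have near-identical relatives that can share reads. B2m, the light chain, had 1303 ± 344 RPKM in SFB, 913 ± 115 RPKM in NFF and 1029 ± 169 RPKM in Control (SD), and neither it nor H2-K1 or H2-D1 passed in any comparison. Among 13 loading and trimming genes, Tapbpl, a tapasin relative that edits peptides, rose in SFB against NFF (0.62, adjusted p = 0.00833), and none of the 6 tested RFX and NF-Y genes passed. Uba6, the enzyme that activates FAT10, rose in SFB against NFF (0.45, adjusted p = 0.0459), 1 of 4 FAT10 partners.

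Among 15 genes of interferon gamma signalling, 4 rose in SFB against NFF, Irf1, Irf8 and Socs1 among them, and 11 did not pass. The differences of 4 of the 15 were below 0. These included the receptor genes Ifngr1 (-0.40, limma adjusted p = 0.169) and Ifngr2 (-0.38, adjusted p = 0.102). Irf1, a transcription factor induced by interferon gamma, had 70.8 ± 5.77 RPKM in SFB, 40.0 ± 1.26 RPKM in NFF and 49.9 ± 3.44 RPKM in Control (SD). It rose by 0.81 in SFB against NFF (limma, adjusted p = 0.00171), and its difference of 0.50 in SFB against Control did not pass (adjusted p = 0.0852). Irf8, a related factor, rose by 1.15 ± 0.14 (adjusted p = 0.00144) and Socs1, an inhibitor of cytokine receptor signalling, by 1.10 ± 0.16 (adjusted p = 0.00300) in SFB against NFF. Among 11 NF-kB regulators 1 rose and 2 fell in SFB against NFF, Nfkbiz (1.42, adjusted p = 0.00220), Nfkb2 (-0.81, adjusted p = 0.0291) and Relb (-0.68, adjusted p = 0.0359). None of the genes in these lists passed in NFF against Control, where the lowest unadjusted p of the interferon gamma list belonged to Irf8 (-0.45, adjusted p = 0.785) and that of the NF-kB list to Nfkbiz (-0.76, adjusted p = 0.659).

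The proportion of other cells in the sorts was looked at through marker lists. Of 18 T cell markers 1 was in the table (Itgae, 0.867 to 3.21 RPKM in SFB, 0.834 to 1.38 in NFF and 0.585 to 0.923 in Control), and of 15 macrophage and dendritic cell markers 3 were, summing to 7.46 to 26.1 RPKM in SFB, 22.3 to 33.3 in NFF and 26.8 to 53.1 in Control. Within that sum Lyz2, a lysozyme gene, had 10 ± 7.12 RPKM in SFB, 23.5 ± 4.48 in NFF and 33.5 ± 15.4 in Control (SD) and passed in no comparison. Itgam, an integrin of myeloid cells, rose in SFB against NFF by 1.41 (limma, adjusted p = 0.0189), at 8.09 ± 3.17 RPKM in SFB, 2.39 ± 0.969 in NFF and 3.64 ± 1.72 in Control, with no overlap between SFB and the other groups. Ptprc, which encodes CD45, a marker sorted against, had 0.825 ± 0.478 RPKM in SFB, 1.89 ± 0.492 in NFF and 1.25 ± 0.866 in Control (SD). Of 9 endothelial and stromal markers 0 were in the table, and of 8 B cell markers 1 was. Crypt and dividing cell markers, 9 of 10 in the table, summed to 70.9 to 282 RPKM in SFB, 31.7 to 46.8 in NFF and 44.2 to 126 in Control, and 4 of them rose in SFB against NFF, Olfm4 by 3.00 (limma, adjusted p = 0.0114), Ccnb2 by 1.66 and Birc5 by 1.58 among them. Cd44, which encodes another marker sorted against, was also among these 4, with a rise of 0.80 in SFB against NFF (limma, adjusted p = 0.0125). It had 1.70 ± 0.493 RPKM in SFB, 0.537 ± 0.139 in NFF and 0.742 ± 0.261 in Control (SD). SFB did not overlap the other groups, and the difference of 0.63 against Control did not pass (adjusted p = 0.156). Paneth, goblet and tuft markers summed to 3349 to 12109 RPKM in SFB, 10618 to 14567 in NFF and 12449 to 19137 in Control. Of these 12 markers 5 fell in SFB against NFF, all of them tuft cell genes, most of all Trpm5 (-2.67), Avil (-2.49) and Gnat3 (-2.21). No Paneth or goblet marker passed in any comparison. The highest crypt sum was in SFB 4, the library with the lowest Ubd, Nlrc5, Tap2 and Tapbp among the SFB libraries. These sums moved with the groups, and their part in the differences of the 10 genes was not tested. Markers outside the table were not analysed here.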

How the data were processed

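RNA-seq was done on 11 libraries of sorted small intestinal epithelial cells, 4 SFB, 4 NFF and 3 Control. Per the labels' protocols, the SMART-seq v4 and NexteraXT kits were used for cDNA and libraries, and these add no molecular identifiers and do not mark strand. Alignment used STAR and mm10, per the submitters' processing notes. How reads were counted, and over which gene lengths, is not given in the sources used here.

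RPKM values for 11366 genes were deposited by the authors, per the file headers, summing to 237248 to 302661 per library. No read counts were used, so depth is unknown and no counting interval is given. Coordinates came from the GENCODE annotation of GRCm38, to which mm10 corresponds, and promoter sequences from RefSeq GRCm38.p6.

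RPKM is not a count, so log2(RPKM + 1) was fitted with limma 3.58.1 in R 4.3.3, with 1 mean per group over all 11 libraries, 8 residual degrees of freedom and eBayes with a mean trend. A gene entered the test with 1 RPKM or more in 3 libraries or more. Of the table, 10482 genes entered, all 10 described genes among them, and 884 did not. Adjusted p-values are Benjamini-Hochberg over all tested genes, with a threshold of 0.05. Ratios of subunits were compared by two-sided exact permutation tests adjusted over 9. The steps were tested on simulated data.

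The genes, lists and tests were chosen with earlier results of these data known. Other genes were named by rule: the constitutive partners, from each list at most 3 called genes by size of change (or the lowest p where none was called), Irf1, B2m, H2-K1, H2-D1, Epcam and Ptprc, and the nearest profiles. Some results under this rule are not reported here. The ratios of Tap1 to Tap2 and of Psme2 to Psme1, and the genes Psme2b, Ifngr1 and Ifngr2, were added as descriptions. Alternatives changed the pseudocount, filter, scaling, trend, weights, block and libraries.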

Additional observations from a re-analysis of the deposited data

Results flagged for a closer look

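Psme2 in NFF 2 was the lowest of the 4 NFF libraries, at 79.1 RPKM, and stood apart from the other 3, which had 97.1, 99.7 and 99.3 RPKM. The gap to the nearest library was 0.873 of the group's range, above Dixon's critical value of 0.829 for 4 libraries. The check covered the 10 genes and the ratios of the 3 catalytic subunits to their constitutive partners. Of its 26 groups of 4 libraries 1 crossed this value, and chance gives about 1 in 20. NFF 2 was also the lowest NFF library for 8 of the 10 genes. Without NFF 2 the log2 difference of Psme2 in SFB against NFF was 0.54 (limma, adjusted p = 0.0980).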

How the results depend on the processing

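In SFB against NFF, Psmb8, Psmb9, Tap1 and Ubd passed in 24 of 24 alternatives and Nlrc5 in 23 of 23. Psme1 passed in 10, Psme2 in 16 and Tap2 in 13 of 24. The count of 8 genes became 5 with the replicate block and 5 with Control 2, SFB 2 and SFB 4 left out (chosen after seeing the data), 6 with median-ratio scaling (Psme1 and Tap2 lost), 7 with no trend (Psme1 lost), 7 when only those groups were fitted (Psme1 lost) and 10 with either array weighting, and lay between 5 and 8 when one library was left out. The fit of 8 called 769 of 10482 genes in all, array weights 4720 and gene-by-gene array weights 3017. In SFB against Control the count of 2 became 1 with a pseudocount of 0.1, 1 with a filter of 3 RPKM, 1 with median-ratio scaling, 0 with the replicate block and 0 when only those groups were fitted. It was 10 with array weights, whose estimate did not converge and gave SFB 1 a weight of 22.1, and 6 with gene-by-gene array weights, chosen after seeing the data; these called 1948 and 333 of 10482 genes, against 21 without weights. Leaving out one library gave 1 to 3. In NFF against Control it was 0 in all 24 alternatives. The causes were not tested.

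Psmb10 in SFB against Control turned to -0.022 without Control 5, in a range of -0.022 to 0.27, and its ratio to Psmb7 in NFF against Control turned to -0.0075 with a pseudocount of 1. With one library left out, that log2 ratio spanned -0.13 to 0.26 in NFF against Control, -0.048 to 0.34 in SFB against Control and -0.0056 to 0.21 in SFB against NFF.

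The replicate block used shared library numbers, and what these numbers mark is not known here. Same-numbered libraries correlated from -0.30 to 0.67 in their deviations from group means, highest for SFB 4 and Control 4. With few libraries and unknown depth, small differences were not detectable, and a difference that missed the threshold is not shown to be absent.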
